A study of Homo sapiens with 18 samples.

Results

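The HOX genes encode homeodomain transcription factors that lie in 4 clusters, HOXA on chromosome 7, HOXB on 17, HOXC on 12 and HOXD on 2. They were chosen by name, as every gene symbol made of HOX, a cluster letter and a number, with antisense genes left out. This gave 39 genes of 23250 listed symbols: 11 HOXA, 10 HOXB, 9 HOXC and 9 HOXD genes. RNA came from SUDHL6, Farage and SUDHL4, 3 human lines of diffuse large B cell lymphoma, each after 12 h in DMSO, the vehicle, or with 79-6.1085 at 10 µM, a compound that the labels call an inhibitor of BCL6, the germinal centre B cell repressor. There were 6 groups (each line with DMSO and each line with the inhibitor) of 3 libraries, and no other treatment is named for any group. Each is an established cell line. Whether the replicates of a group were grown apart is not in the labels, and a p-value here thus covers the spread among these libraries alone, possibly only technical. The questions were which clusters each line expressed and whether the silent genes stayed silent after treatment.

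Within a cluster the genes are numbered by paralog group, from 1 at the 3′ end, used early and anteriorly in the embryo, to 13 at the 5′ end, used late and posteriorly. Genes of the same number in different clusters are paralogs. Outside their domain they are the textbook targets of Polycomb repression, in which PRC2 methylates histone H3 at lysine 27 and PRC1 compacts the chromatin, while complexes of the MLL and trithorax type keep active HOX genes on. In blood, HOXA and HOXB genes are high in stem and progenitor cells and fall as cells mature, and HOXC genes have been described in lymphoid cells. HOX proteins bind DNA with cofactors of the TALE class, the PBX, MEIS and PKNOX proteins.

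The 250 bases before the transcription start are shown for 4 genes picked to stand for different states in these lines. CpG dinucleotides are in capitals, since dense CpG is a feature of promoters that Polycomb can hold. HOXA6 was near the threshold of expression in every line, and HOXA10 was expressed in Farage alone. Its neighbour HOXA9 had no read in any library, though how the counting divided reads among overlapping genes there is uncertain. HOXD11 stands for the silent HOXD cluster. The 4 windows were read from RefSeq promoter sequences of build GRCh38.p14, on the strand of the gene: HOXA6 chr7:27147775-27148024 (minus strand), HOXA9 chr7:27165538-27165787 (minus), HOXA10 chr7:27174321-27174570 (minus, the more 3′ of its starts) and HOXD11 chr2:176107030-176107279 (plus). None of these windows overlapped an annotated exon. The deposited values were counted on hg19 and carry no coordinates.
HOXA6: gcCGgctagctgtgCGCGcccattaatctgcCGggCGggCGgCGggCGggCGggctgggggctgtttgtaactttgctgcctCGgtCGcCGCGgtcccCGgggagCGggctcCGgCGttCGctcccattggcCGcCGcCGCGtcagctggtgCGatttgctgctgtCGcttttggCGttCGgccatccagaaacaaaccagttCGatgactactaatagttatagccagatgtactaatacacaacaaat
HOXA9: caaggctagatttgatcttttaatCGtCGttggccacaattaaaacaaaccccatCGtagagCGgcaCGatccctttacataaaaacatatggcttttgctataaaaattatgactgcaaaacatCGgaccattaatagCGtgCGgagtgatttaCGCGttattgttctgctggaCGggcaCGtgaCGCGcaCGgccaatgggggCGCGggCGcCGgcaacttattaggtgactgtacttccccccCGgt
HOXA10: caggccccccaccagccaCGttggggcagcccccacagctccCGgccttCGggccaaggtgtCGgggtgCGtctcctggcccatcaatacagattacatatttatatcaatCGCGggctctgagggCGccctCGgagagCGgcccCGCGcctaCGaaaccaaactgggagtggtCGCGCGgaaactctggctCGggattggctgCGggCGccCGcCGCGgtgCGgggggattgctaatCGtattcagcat
HOXD11: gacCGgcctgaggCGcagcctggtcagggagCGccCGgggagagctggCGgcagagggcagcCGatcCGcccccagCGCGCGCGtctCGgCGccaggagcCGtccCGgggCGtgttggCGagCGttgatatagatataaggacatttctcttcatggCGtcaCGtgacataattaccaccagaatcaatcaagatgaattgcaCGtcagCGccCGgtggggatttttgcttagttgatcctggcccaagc
These windows held 27 CpG in HOXA6, 20 in HOXA9, 24 in HOXA10 and 23 in HOXD11. A promoter entry existed for 20 of the 39 genes, giving 27 windows of which 26 were distinct, several of them alternative starts of HOXA3. HOXC4 and HOXC5 shared an identical window. The median window of the 26 held 19.5 CpG, with a range from 0 to 40, against a median of 11 over all 34788 windows of that length. Expressed and silent genes both had CpG-dense windows: HOXA7, on in every line, had 28 CpG and HOXA13, silent in every line, had 40.

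Short motifs were searched on both strands of the same windows, and matches were counted for each motif whether or not they overlapped another. The BCL6 consensus TTCCTNGAA was in 0 of the 26 HOX windows and in 1.37% of all windows. The E-box CACGTG, the core bound by MYC and its relatives, was in 8 of 26 (6.31% of all), among them HOXA4, HOXA9, HOXD11 and HOXD13. The YY1 core GCCATNTT was in 5 (3.86% of all), among them HOXC4, HOXD3 and HOXD10. The PBX-HOX composite TGATTNAT was in 2 (2.48% of all), among them HOXD11, and the AGGTCA core of retinoic acid elements was in 0 (12.0% of all). These are matches of letters in short windows and say nothing of binding. No window was available for HOXA5, HOXB3, HOXB4, HOXB7, HOXB9 or HOXC6, so these genes were not searched.

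Values are CPM, reads of a gene scaled to the size of its library. Between 6.29 and 25.49 M reads fell on listed genes in each library, and replicate 3 was the shallowest library of both SUDHL6 groups, at 7.36 M in DMSO and 6.29 M treated. A gene with no read in the 3 libraries of a group may still lie at up to 0.0338 to 0.0555 CPM, the value of 3 reads over the group, which covers counting error only. In each line all 5 B cell and all 5 germinal centre B cell markers were expressed in DMSO. Their summed levels were lower after treatment, for the B cell markers from 4470 to 4650 CPM in SUDHL6 DMSO libraries to 1930 to 2890 treated, from 3450 to 3600 to 2000 to 2100 in Farage, and from 5650 to 6000 to 3960 to 4120 in SUDHL4. Of the myeloid markers, only CD14 was at 1 CPM or more in all 3 treated lines. The 5 summed were at 0 to 0.529 CPM in DMSO and 1.64 to 3.62 treated in SUDHL6, 1.81 to 2.57 and 2.41 to 3.26 (overlapping) in Farage, and 0.584 to 1.17 and 2.13 to 2.95 in SUDHL4. CD14 and ITGAM could be tested: CD14 was called higher in every line, and ITGAM higher in SUDHL6 (0.63), lower in Farage (-0.52, from 1.32 to 0.619 CPM) and not called in SUDHL4 (0.10), with LYZ at 0 in all 6 SUDHL6 libraries. Of 4 fibroblast markers 1 was high in each of 2 lines: DCN in SUDHL4 (62.3 CPM in DMSO, 18.7 treated) and COL1A1 in Farage (6.48 and 1.18), while COL1A2 was at most 0.0551 CPM in any group. The part of these markers in the HOX results was not tested. In bulk RNA, fewer cells expressing a gene and less RNA per cell cannot be told apart.

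A gene was called on in a line if its mean DMSO level was at least 1 CPM. By that rule the 3′ to middle HOXA genes, a few HOXB genes and HOXC4 were on, and the HOXD cluster was off everywhere. SUDHL6 had 9 genes on (5 HOXA, 3 HOXB, 1 HOXC), Farage 10 (5, 3 and 2) and SUDHL4 10 (6, 3 and 1). The same 8 genes were on in all 3 lines, among them HOXA3, HOXA5, HOXA7, HOXB3, HOXB4, HOXB7 and HOXC4. HOXA4 was on in 2 lines, SUDHL6 and SUDHL4. A further 3 were on in 1 line, HOXA6 in SUDHL4 and HOXA10 and HOXC6 in Farage. The other 27 were on in none. Of these, 7 had no read in any of the 18 libraries: HOXA9, HOXB1, HOXB13, HOXC5, HOXC12, HOXD3 and HOXD4. For HOXA9 and HOXC5, which overlap other annotated genes, the division of reads in the counting is uncertain. Beyond paralog group 7 HOXA10 in Farage was the only gene on.

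**Figure D1:**
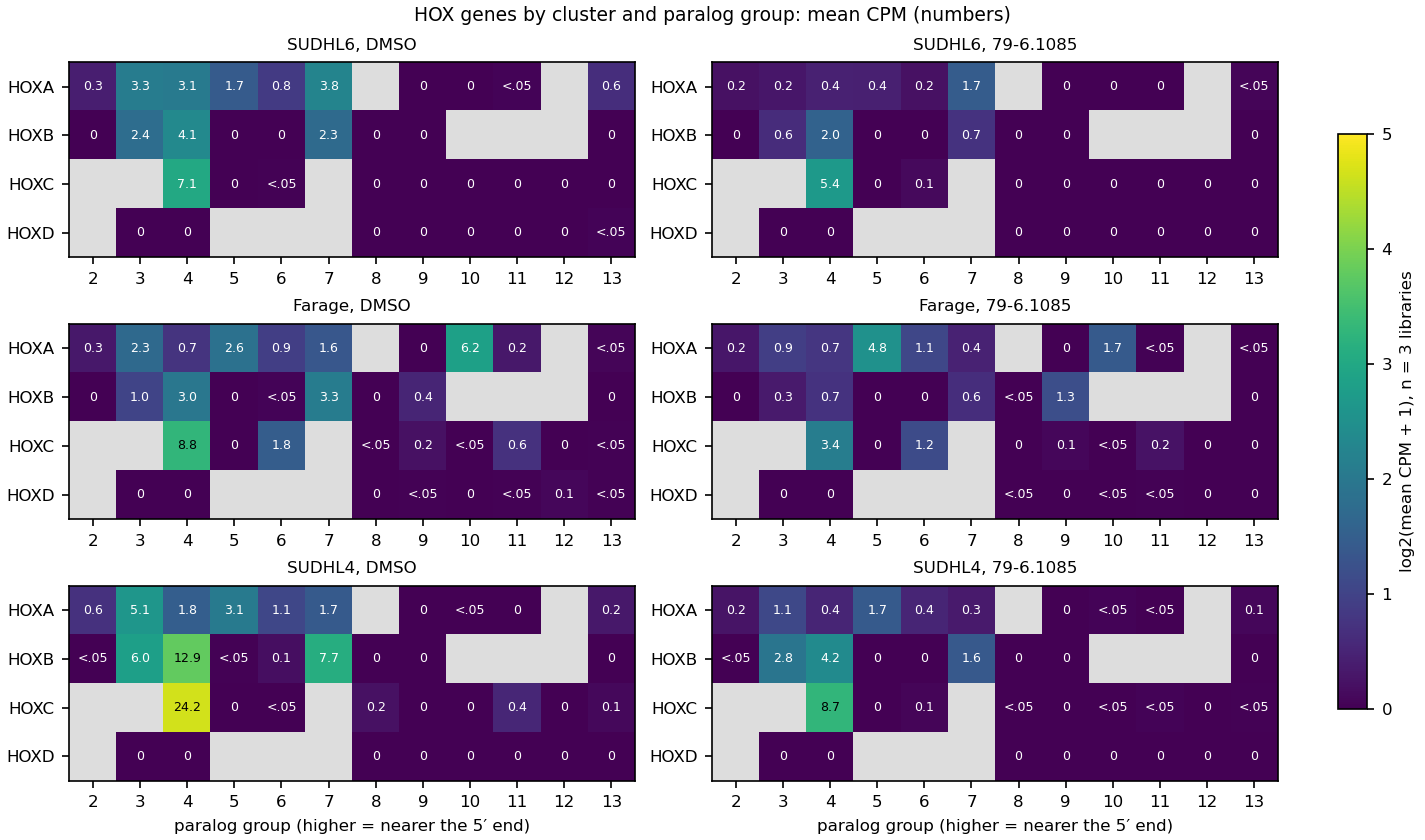
Mean CPM of the HOX genes of paralog groups 2 to 13 (numbers; colour, log2(mean CPM + 1), n = 3 libraries) by cluster (rows) and paralog group (columns) in the 6 groups; grey cells are positions with no human gene, and a less-than sign marks a mean too small to print. Expression lies in groups 3 to 7 of HOXA and in HOXB3, HOXB4, HOXB7 and HOXC4, with HOXA10 and HOXC6 only in Farage, and the HOXD row is dark in every panel.

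The clusters differed in weight between the lines. Summed over genes and not per length, HOXA reached 27.6 ± 3.39 CPM in SUDHL6 DMSO, 20.1 ± 0.725 in Farage and 23.5 ± 2.4 in SUDHL4 (SD, n = 3). Summed HOXB was 8.88 ± 1.48, 7.76 ± 0.359 and 26.8 ± 1.23 CPM, and summed HOXC 7.08 ± 1.01, 11.4 ± 0.158 and 24.9 ± 1.67 CPM, in the same order. SUDHL4 thus held all 3 clusters at similar sums, whereas HOXA made up most of the HOX reads of SUDHL6. The HOXD sum was 0.0483 ± 0.0543 CPM in SUDHL6, 0.127 ± 0.0193 in Farage and 0 in all SUDHL4 libraries. The 9 HOXD genes had 17 reads over all 18 libraries, and the most for 1 gene was 5, for HOXD12.

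To compare levels between genes, CPM were divided by exon length in kb (GENCODE v29). HOXC4, known in B cells as an activator of the AID gene for antibody diversification, was highest in Farage (3.21 CPM per kb) and SUDHL4 (8.89 CPM per kb). In SUDHL6 HOXC4 was at 2.59, HOXA4 at 1.79 and HOXA7 at 1.56 CPM per kb. HOXB7 was next in both other lines, at 2.17 CPM per kb in Farage and 5.04 in SUDHL4.

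Between the lines in DMSO, the 13 HOX genes that passed the filter on low values (1 CPM or more in no fewer than 3 of the 18 libraries) went into limma on log2(CPM + 1), with p-values adjusted over 12769 genes. The other 26 were too low to be tested. HOXA10, HOXC6 and HOXB9 passed through Farage libraries alone, so that a difference of Farage from the other lines is given by the filter. In Farage against SUDHL6, 9 of 13 were called (71.3% of all genes), 3 higher (33.8%) and 6 lower (37.5%). In Farage against SUDHL4, 10 were called (67.1%), 3 higher (36.0%) and 7 lower (31.1%). In SUDHL6 against SUDHL4, 9 were called (68.6%), 3 higher (38.5%) and 6 lower (30.1%). The shares of HOX genes called were near those of all genes.

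HOXA10, a posterior gene with a known role in myeloid progenitors, was at 6.11, 6.38 and 6.04 CPM in Farage DMSO. It had no read in SUDHL6 and 1 read in SUDHL4 DMSO. HOXC6 was at 1.95, 1.67 and 1.77 CPM in Farage DMSO, with 2 reads in SUDHL6 and 1 in SUDHL4. HOXB9 had 37 reads in Farage DMSO and none in the other lines. In each of these 3 clusters Farage thus carried a gene that the other lines lacked, beside a neighbour without reads: HOXA9 and HOXC5 had none in any library, and HOXB8 had none in DMSO. HOXA9 and HOXC5 overlap other annotated genes, and how the counting divided reads among them is uncertain. Their lack of reads therefore need not mean that they were silent.

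HOXB4, known for expanding blood stem cells when forced on, was at 14.1, 12.6 and 12.1 CPM in SUDHL4, 3.81, 4.87 and 3.64 in SUDHL6 and 2.8, 2.91 and 3.18 in Farage. SUDHL4 stood above both other lines without overlap, by 1.45 over SUDHL6 and 1.81 over Farage on the log2(CPM + 1) scale (SE 0.134 each). HOXC4 was at 24.9, 25.4 and 22.4 CPM in SUDHL4, 7.2, 7.97 and 6 in SUDHL6 and 8.62, 9.04 and 8.61 in Farage. It was higher in SUDHL4 by 1.65 than in SUDHL6 (SE 0.159, adjusted p = 1.09e-07), and Farage and SUDHL6 were not called different (0.28, adjusted p = 0.121), though they were with median-of-ratios scaling (0.0257), edgeR (0.0385) and DESeq2 (0.0284). HOXA4 went the other way, at 2.97, 3.29 and 3.11 CPM in SUDHL6 against 0.553, 0.709 and 0.759 in Farage (-1.30, SE 0.124, adjusted p = 7.06e-08).

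The genes next to the threshold were close to it. In SUDHL6 the lowest gene on was HOXA5 (1.72 CPM) and the highest silent gene HOXA6 (0.808). In Farage these were HOXB3 (1.03) and HOXA6 (0.907), and in SUDHL4 HOXA6 (1.1) and HOXA2 (0.637). HOXA6 thus changed its state between lines with means of 0.808 to 1.1 CPM, and no pair of lines was called different in it (adjusted p = 0.0873 to 0.554). SUDHL6 and SUDHL4 were called with median-of-ratios scaling (0.0415), with the compared libraries alone (0.0248) and without treated SUDHL6 replicate 3 (0.0493).

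After treatment most expressed HOX genes fell in every line. This held in each of the 3 expressed clusters, except for HOXC in SUDHL6, where HOXC4, the only gene on, was not called. Summed HOXA dropped to 14.5 ± 5.31 CPM in SUDHL6, 13.3 ± 1.14 in Farage and 9.22 ± 1.37 in SUDHL4. Summed HOXB was at 3.19 ± 0.665, 2.85 ± 0.46 and 8.71 ± 0.612 CPM, and summed HOXC at 5.49 ± 1.49, 4.83 ± 0.819 and 8.87 ± 1.35 CPM. In HOXA, HOXB and HOXC the treated sums lay below all DMSO sums of the line, except HOXC in SUDHL6, whose ranges overlapped (5.997 to 8.004 CPM in DMSO, 4.173 to 7.106 treated).

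In SUDHL6, 0 of the 13 tested genes were called higher (26.8% of all genes) and 8 lower (41.3%), together 8 (68.1%). In Farage 2 were called higher (25.4%) and 9 lower (46.5%), together 11 (71.9%). In SUDHL4 0 were called higher (24.3%) and 10 lower (46.2%), together 10 (70.5%). Averaged over the lines, 1 was called higher (30.1%) and 11 lower (53.8%), together 12 (83.9%). Of all genes, the treated libraries lay wholly below DMSO in 36.5%, 53.2% and 51.6% and wholly above in 24.4%, 30.6% and 28.9% in SUDHL6, Farage and SUDHL4. The median change of the 13 was -0.77 in SUDHL6, -0.66 in Farage and -0.88 in SUDHL4, beside -0.13, -0.22 and -0.21 over all genes tested. Median-of-ratios scaling moved the median of all genes to 0.00, -0.04 and 0.00, and with it the split of all calls to 4285 higher and 4750 lower in Farage (3246 and 5939 without it) and to 4376 and 4609 in SUDHL4 (3102 and 5894). With that scaling, HOX calls were 0 higher and 8 lower in SUDHL6, 3 and 7 in Farage, and 0 and 9 in SUDHL4. HOXA10, HOXC6 and HOXB9, which passed the filter through Farage alone, are among these counts. HOXB9, the 1 called higher in the average, passed only through the treated Farage libraries. Its higher calls, in Farage and in the average, are thus no separate support for a rise. The call in the average was lost with edgeR and with DESeq2 (adjusted p = 0.3).

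**Figure D2:**
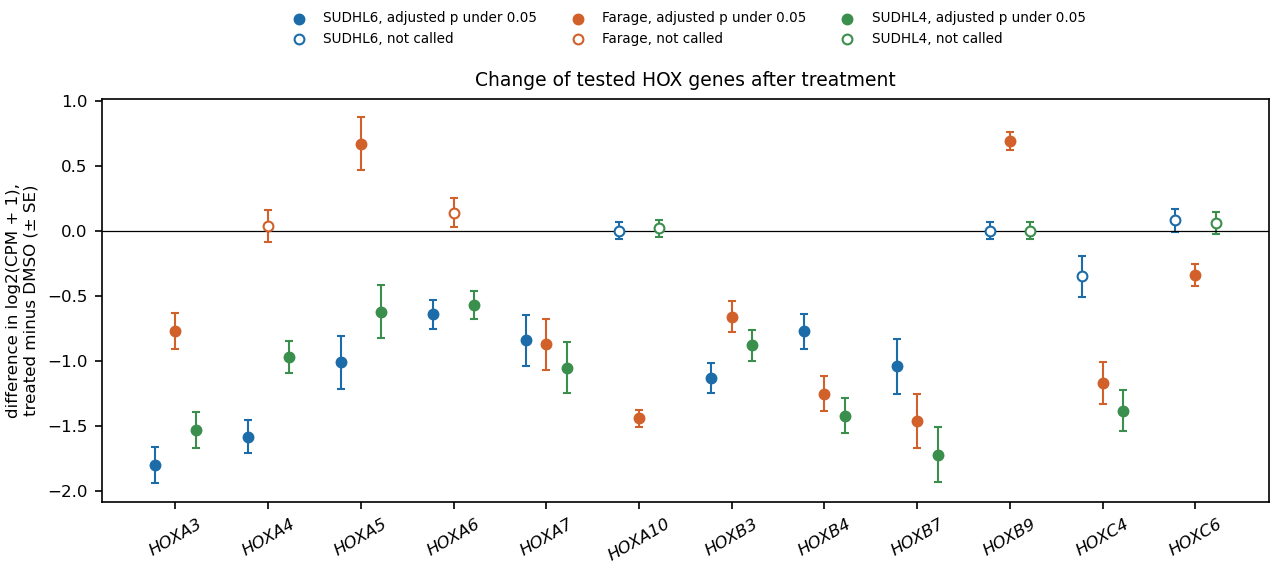
Difference in log2(CPM + 1), treated minus DMSO, with its SE from the limma model (12 residual degrees of freedom), for tested HOX genes in SUDHL6 (blue), Farage (orange) and SUDHL4 (green); filled points have an adjusted p under 0.05. Most points lie below 0, and HOXA5 and HOXB9 in Farage are the filled points above it.

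Some responses differed between the lines, as did those of 35.0% to 37.4% of all genes. The change in Farage differed from that in SUDHL6 for 9 of the 13 genes (36.8% of all genes), 6 of them towards higher (15.1%) and 3 towards lower (21.7%). It differed from SUDHL4 for 7 (37.4%), 5 towards higher (19.7%) and 2 towards lower (17.7%). SUDHL6 and SUDHL4 differed for 3 (35.0%), 2 higher (22.5%) and 1 lower (12.5%). For SUDHL6 and SUDHL4 the share of HOX genes was thus below that of all genes. HOXA10, HOXB9 and HOXC6, which only Farage expressed, are among the Farage differences, and they had 0 to 6 reads per group in the other lines. These 3 passed the filter on low values through Farage alone, so the Farage counts are partly given by the filter. On the log2(CPM + 1) scale the size of a change also depends on the level in DMSO.

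In the HOXA cluster, HOXA3, required in the embryo for thymus and parathyroid, had the largest fall averaged over the lines (-1.37). It went from 3.08, 4.04 and 2.78 CPM to 0.258, 0.311 and 0.121 in SUDHL6 (-1.80, SE 0.139, adjusted p = 1.77e-08), from 2.18, 2.13 and 2.46 to 0.977, 0.753 and 1.01 in Farage (-0.77, adjusted p = 0.000113) and from 6.06, 5 and 4.36 to 0.959, 0.854 and 1.57 in SUDHL4 (-1.53, adjusted p = 5.84e-08). Treated and DMSO libraries did not overlap in any line. The fall in Farage was smaller than in SUDHL6 by 1.03 (adjusted p = 0.0007) and than in SUDHL4 by 0.76 (adjusted p = 0.00592, lost with edgeR, 0.0527, and DESeq2, 0.0603).

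HOXA7, which with HOXA9 is a known target of MLL fusion proteins in leukaemia, fell in all 3 lines. Its DMSO and treated means were 3.77 and 1.75 CPM in SUDHL6 (-0.84), 1.56 and 0.4 in Farage (-0.87) and 1.68 and 0.285 in SUDHL4 (-1.05, SE 0.196 each, adjusted p = 0.000143 to 0.00121). The largest treated value in SUDHL6, 2.84 CPM in replicate 2, lay just under the lowest DMSO value of 2.97. Reads of HOXA7 could not be told apart from those of an antisense gene over 62.5% of its exon bases, as the strand setting of the counting is not given in the sources used here.

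HOXA4, HOXA5 and HOXA6 changed differently in Farage than in either other line. HOXA5, which patterns neck and lung, was at 2.93, 2.66 and 2.35 CPM in Farage DMSO and 5.57, 4.44 and 4.39 treated. It rose there by 0.67 (SE 0.206, adjusted p = 0.00817) and fell in SUDHL6 by 1.01 on the log2 scale, from 1.66, 2.53 and 0.964 to 0.0861, 0.844 and 0.121 CPM (adjusted p = 0.000362). The SUDHL4 libraries went from 3.25, 3.04 and 2.98 to 1.44, 1.42 and 2.18 CPM (-0.62, adjusted p = 0.0128). None of these groups overlapped with its DMSO libraries. The rise in Farage exceeded the changes in SUDHL6 and SUDHL4 by 1.68 (adjusted p = 0.000303) and 1.29 (adjusted p = 0.00234). With a pseudocount of 0.25 the HOXA5 calls in Farage (adjusted p = 0.0549) and SUDHL4 (0.0519) were lost, and the SUDHL4 call also with median-of-ratios scaling (0.0661), edgeR (0.117) and DESeq2 (0.0855). None of the HOXA5 exon bases is shared with another gene.

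HOXA4 fell in SUDHL6 from 2.97, 3.29 and 3.11 to 0.258, 0.4 and 0.483 CPM, by -1.58 (SE 0.124, adjusted p = 1.94e-08), as it did in SUDHL4, from 1.64, 2.47 and 1.37 to 0.443, 0.285 and 0.555 CPM (-0.97, adjusted p = 2.61e-06). The Farage libraries were at 0.553, 0.709 and 0.759 and then 0.847, 0.753 and 0.57 CPM, overlapping groups (0.04, adjusted p = 0.788). HOXA6 fell in SUDHL6 from a mean of 0.808 to 0.165 CPM (-0.64, adjusted p = 7.29e-05) and also in SUDHL4, from 1.1 to 0.423 (-0.57, adjusted p = 0.00022). In Farage HOXA6 was at 1.07, 0.78 and 0.868 CPM and, treated, 1.11, 0.866 and 1.34 (0.14, adjusted p = 0.271, and 0.26, 0.0413 with median-of-ratios scaling). The changes of HOXA4 and HOXA6 in Farage differed from those in SUDHL6 by 1.62 and 0.78 and from those in SUDHL4 by 1.01 and 0.71 (adjusted p = 3.12e-06 to 0.00201). HOXA4 and HOXA6 share 47.3% and 40.1% of exon bases with other genes, partly on the opposite strand. In Farage the 3 adjacent genes HOXA4, HOXA5 and HOXA6 were thus level or higher after treatment, while HOXA3 and HOXA7 on their flanks were lower.

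HOXA10 in Farage fell from 6.11, 6.38 and 6.04 to 1.47, 1.7 and 1.81 CPM (-1.44, SE 0.0651, adjusted p = 4.09e-11), 3.73-fold between the means. Its groups were far apart. The SE pools all 6 groups, and HOXA10 had 0 to 2 reads per group in the other lines, so it does not measure the spread in Farage alone. With edgeR and no filter the adjusted p was 1.43e-06. HOXA9 and the read-through gene HOXA10-HOXA9, whose RefSeq span covers HOXA9, had 0 reads in all libraries against 682 for HOXA10, so how the counting divided reads among these overlapping genes is uncertain.

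**Figure D3:**
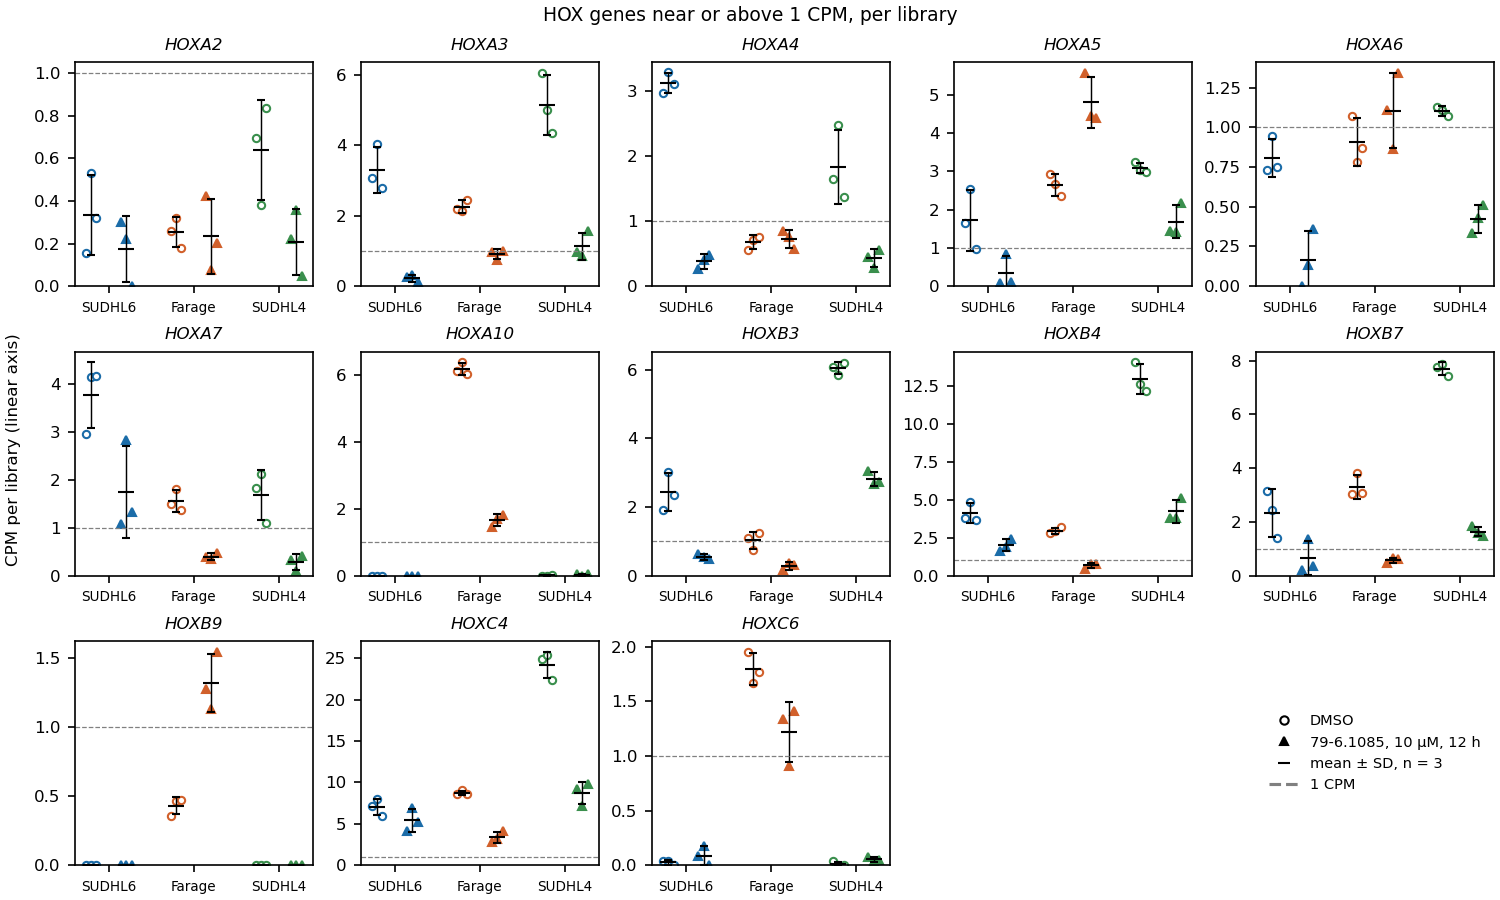
CPM in each library (linear axis) of HOX genes on, or next to 1 CPM, in at least 1 line; open circles, DMSO; triangles, 79-6.1085 at 10 µM for 12 h; bars, mean ± SD (n = 3), drawn down to 0 where the SD exceeds the mean; dashed line, 1 CPM. HOXA5 in Farage rises above its DMSO libraries, HOXB9 in Farage crosses 1 CPM, and HOXB3, HOXB4 and HOXB7 drop in every line.

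In the HOXB cluster, the 3 expressed genes fell in every line without overlap. HOXB4 went from 3.81, 4.87 and 3.64 to 1.64, 1.91 and 2.42 CPM in SUDHL6 (-0.77, SE 0.134, adjusted p = 7.97e-05), from 2.8, 2.91 and 3.18 to 0.456, 0.791 and 0.771 in Farage (-1.25, adjusted p = 4.05e-07) and from 14.1, 12.6 and 12.1 to 3.8, 3.81 and 5.09 in SUDHL4 (-1.42, adjusted p = 8.81e-08). HOXB7 dropped 3.58-fold between means in SUDHL6, 5.84-fold in Farage and 4.69-fold in SUDHL4, to 0.651, 0.567 and 1.64 CPM (changes of -1.04, -1.46 and -1.72, SE 0.21). Its highest treated value in SUDHL6, 1.38 CPM in replicate 2, lay just under the lowest DMSO value of 1.39. HOXB3, which shares functions with HOXB4 in blood progenitors, fell from 2.43 to 0.554 CPM in SUDHL6 (-1.13), from 1.03 to 0.28 in Farage (-0.66) and from 6.05 to 2.82 in SUDHL4 (-0.88, SE 0.118). HOXB7 shares no exon base with another gene. HOXB4 shares 17.1% and HOXB3 13.2% of exon bases with other genes, in part with each other, so the division of reads between them is uncertain. In HOXB4 the change in SUDHL6 was smaller than in SUDHL4 by 0.64 (adjusted p = 0.0149), which was lost with a pseudocount of 0.25 (0.088), edgeR (0.28) and DESeq2 (0.346).

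In the HOXC cluster, HOXC4 fell in Farage from 8.62, 9.04 and 8.61 to 2.83, 3.16 and 4.09 CPM, by -1.17 (SE 0.159, adjusted p = 5.65e-06). The SUDHL4 values went from 24.9, 25.4 and 22.4 to 9.26, 7.15 and 9.77 CPM (-1.38, adjusted p = 8.42e-07). SUDHL6 libraries were at 7.2, 7.97 and 6 CPM and, treated, at 4.09, 6.93 and 5.19, overlapping groups (-0.35, adjusted p = 0.0634). In that line same-numbered replicates varied together, and with the replicate number as a block the adjusted p was 0.0497. It was 0.0319 without SUDHL6 DMSO replicate 3 and 0.0075 without treated SUDHL6 replicate 2. The change in SUDHL6 was smaller than in Farage by 0.82 (adjusted p = 0.00881) and in SUDHL4 by 1.04 (adjusted p = 0.00214). HOXC6 in Farage was at 1.95, 1.67 and 1.77 CPM and then 1.34, 0.904 and 1.41 (-0.34, adjusted p = 0.00209). It was not called after scaling by median of ratios (adjusted p = 0.0507), in edgeR (0.234) or in DESeq2 (0.45). HOXC4, HOXC5 and HOXC6 start at the same RefSeq position on chromosome 12, and HOXC5 had no read, so the division of reads among them is uncertain.

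Several genes that were on dropped under 1 CPM. In SUDHL6 these were 5 of 9, HOXA3, HOXA4, HOXA5, HOXB3 and HOXB7, in Farage 5 of 10, HOXA3, HOXA7, HOXB3, HOXB4 and HOXB7, and in SUDHL4 3 of 10, HOXA4, HOXA6 and HOXA7. Of all genes on in DMSO, 4.7%, 5.68% and 5.21% did so. Among genes at 1 to 5 CPM in DMSO, a range like that of most HOX genes and chosen after the values were seen, the shares were 27.7%, 32.6% and 29.9%.

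With 2 exceptions, both in Farage, the silent HOX genes stayed under 1 CPM. In SUDHL6 0 of 30 silent genes reached 1 CPM after treatment (3.02% of all silent genes did), in Farage 2 of 29 (3.25%) and in SUDHL4 0 of 29 (2.91%). Summed over the silent genes, reads went from 106 in DMSO to 27 treated in SUDHL6, from 308 to 326 in Farage and from 156 to 37 in SUDHL4. The highest treated level of a silent gene in SUDHL6 and SUDHL4 was that of HOXA2, a hindbrain gene, at 0.174 and 0.208 CPM. No read at all was found in 23 silent genes in the 6 libraries of SUDHL6, 10 in Farage and 17 in SUDHL4. HOXA9 and HOXC5, for which the division of reads is uncertain, are among them in each line. Genes without a DMSO read gained at most 1 read, in 3 of 13 such genes of Farage and 2 of 19 of SUDHL4 (of all genes without a DMSO read, 0.0534%, 0.0156% and 0.0% reached 1 CPM in SUDHL6, Farage and SUDHL4).

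The genes that crossed were HOXB9 and HOXA6 in Farage. HOXB9, a posterior HOXB gene that was at 0 in SUDHL6 and SUDHL4 before and after treatment, went from 0.358, 0.461 and 0.47 to 1.27, 1.13 and 1.54 CPM (37 to 115 reads, 0.69, SE 0.0659, adjusted p = 1.04e-07). Every treated library was above every DMSO library, with a ratio of means of 3.06, and none of its exon bases is shared with another gene. HOXB9 passed the filter on low values only through the treated Farage libraries, so this p-value is no separate support. The SE pools all 6 groups, and those of SUDHL6 and SUDHL4 were at 0, so it does not measure the spread in Farage alone. With edgeR and no filter the adjusted p of HOXB9 was 0.000329. HOXA6 went from 0.907 to 1.1 CPM and was not called. Without treated Farage replicate 3, 1 gene reached 1 CPM in place of 2. At a threshold of 0.5 CPM 1 gene crossed, and at 2 CPM none.

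With no filter on low values, 32 HOX genes with any read could be fitted. Of the silent ones, 0 of 23 were then called higher in SUDHL6 (20.0% of all 19369 genes) and 2 lower (28.4%), 1 of 22 higher in Farage (19.8%) and 4 lower (32.8%), and 0 of 22 higher in SUDHL4 (18.1%) and 5 lower (31.7%). With edgeR and no filter, 2 were lower in Farage (HOXC9, adjusted p = 0.214, and HOXD12, 0.0808, were lost), 3 in SUDHL4 (HOXA2, 0.065, and HOXC13, 0.412, were lost) and 2 in SUDHL6. The gene called higher, in limma and in edgeR, was HOXB9. Of those called lower, 3 are described here, chosen after their values were seen. HOXC11, a posterior gene of limb and genital patterning, was at 0.618, 0.709 and 0.579 CPM in Farage DMSO and 0.163, 0.151 and 0.235 treated (-0.47, adjusted p = 5.64e-07). In SUDHL4 it was at 0.328, 0.538 and 0.469 and then 0, 0.0712 and 0.0463 CPM (40 to 3 reads, -0.47, adjusted p = 4.76e-07). HOXA13 in SUDHL6 was at 0.27, 0.491 and 0.964 CPM and then 0, 0.133 and 0 (29 to 3 reads, -0.57, adjusted p = 0.000324). HOXA11 in Farage had 21 reads in DMSO and 2 treated (-0.28, adjusted p = 1.07e-05).

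**Figure D4:**
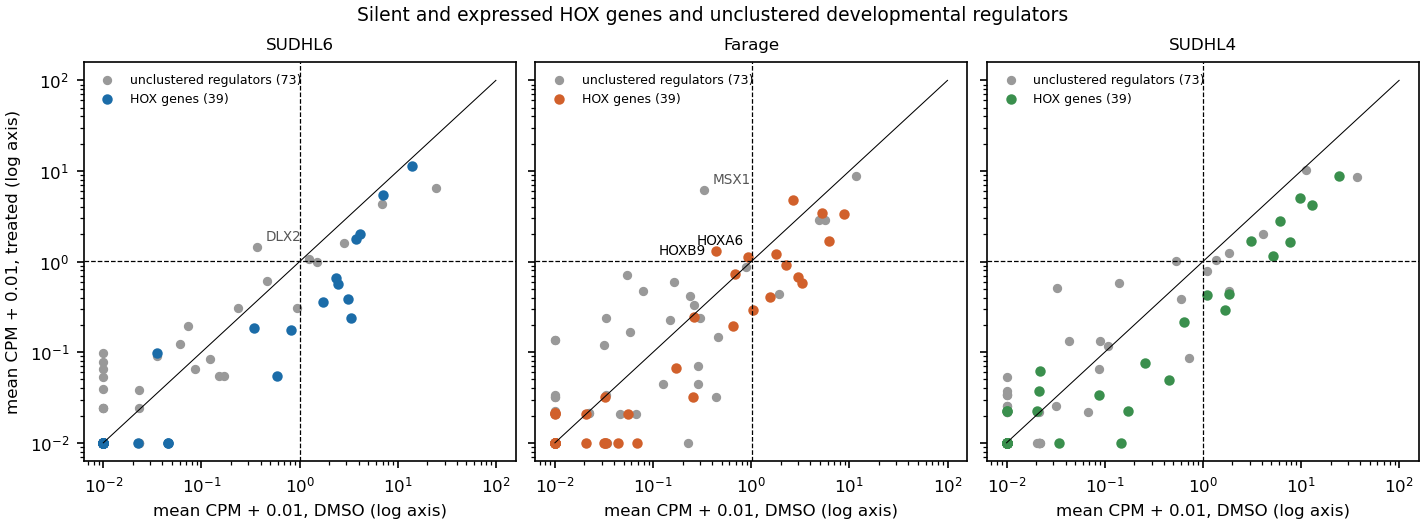
Mean CPM + 0.01 in treated against DMSO libraries (log axes, n = 3) of the 39 HOX genes (coloured) and 73 unclustered developmental regulators (grey) in each line; dashed lines mark 1 CPM and the diagonal equal levels. The upper left quadrant, silent genes that reached 1 CPM, holds HOXB9 and HOXA6 in Farage, beside DLX2 in SUDHL6 and MSX1 in Farage.

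A list of 73 unclustered developmental regulators of the kind that Polycomb typically holds silent, such as PAX, GATA, FOX and SOX genes, was measured alongside. Of these 68 were silent in SUDHL6, 69 in Farage and 66 in SUDHL4, and 1, 1 and 0 reached 1 CPM after treatment. MSX1, a homeobox repressor of differentiation, rose in Farage from 0.325, 0.39 and 0.253 to 5.86, 5.31 and 7.34 CPM (2.43, adjusted p = 4.84e-11). It was named because it crossed 1 CPM in these same values. In Farage only its treated libraries reached 1 CPM, so the p-value is no separate support. DLX2, a forebrain homeobox gene, was at 0.308, 0.453 and 0.321 CPM in SUDHL6 and 2.24, 1.33 and 0.725 treated, and was too low to pass the filter. In the opposite direction PAX6 in SUDHL6, FOXC1 in Farage and SUDHL4 and SOX2 in SUDHL4 went under 1 CPM. Averaged over the lines, 1 of the 12 tested was called higher and 9 lower (30.1% and 53.8% of all genes). PITX1 fell from 24.6 to 6.41 CPM in SUDHL6 and from 37.5 to 8.58 in SUDHL4, adjusted p = 4.52e-07 and 1.08e-07.

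The other genes of the pathway moved in both directions, as did all genes in the average of the lines, 30.1% of which were called higher and 53.8% lower. Of 9 TALE cofactors 5 were tested and 2 rose when averaged over the lines, PKNOX1 (0.88, from 41.1 to 68.3 CPM in SUDHL4, for example) and PBX3 (0.84, from 13.5 to 34.7), with none lower. PBX3 forms a known complex with HOXA9 in leukaemia. Of 20 MLL and trithorax-type activators 17 were tested, 8 of them higher and 6 lower by the same average. The core subunits ASH2L (-1.24) and WDR5 (-1.21) fell, while the elongation factor subunit AFF4 (1.54) and HCFC1 (0.83) rose. The H3K27 demethylases KDM6A and KDM6B, which remove the PRC2 mark, rose by 1.64 (SE 0.0591) and 1.02 (SE 0.0989). KDM6A was at 31.9, 32.1 and 29.5 CPM in SUDHL6 DMSO and 134, 104.5 and 128 treated.

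Of 10 retinoic acid receptors and targets 5 were tested, with 2 higher and 1 lower (30.1% and 53.8% of all genes). The receptor RARG fell (-1.02), and RXRA (0.18) and TGM2 (0.82) rose. Of 15 genes that flank the clusters 11 were tested, with 3 higher and 7 lower, near the shares of all genes, among them ATP5G3 near HOXD (-1.08), SKAP2 near HOXA (-0.76) and HIBADH, also near HOXA (-0.63), against CALCOCO2 near HOXB (1.16). HOTAIRM1, a noncoding RNA of the HOXA cluster, was at 6.6, 2.03 and 4.37 CPM in DMSO and 7.15, 1.77 and 5.91 treated in SUDHL6, Farage and SUDHL4, and was not called in any line (adjusted p = 0.0511 to 0.53). Of the 19 noncoding RNAs inside the clusters, 4 were listed by a matching symbol.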

How the data were processed

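RNA-seq values of 18 libraries (3 lines, DMSO or inhibitor, 3 libraries each) were used as deposited: CPM per RefSeq gene symbol, which the authors computed; STAR and hg19 appear in the submitters' processing notes, and Rsubread in 1 label. For versions, annotation release and strand setting: not given in the sources used here. From the CPM, whole reads were recovered for 100% of values (within 0.01 reads).

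The main test was limma 3.58.1 (R 4.3.3) with an intensity trend on log2(CPM + 1), 1 mean per group, 12 residual degrees of freedom, on 12769 genes with at least 1 CPM in at least 3 libraries, two-sided, with Benjamini-Hochberg adjustment over all genes tested and a threshold of 0.05. A fold change on this scale understates that of low genes. Alternatives were a pseudocount of 0.25, no filter or a mean of at least 5 CPM, median-of-ratios scaling, edgeR 4.0.16 and DESeq2 1.42.0 on the recovered reads, only the compared libraries, the replicate number as a block, each library left out, and, added after seeing the data, edgeR with no filter. The script was tested on simulated data. HOX genes were named if on in a line, if crossing 1 CPM, or next to that threshold; from each gene list up to 4 called members were named by smallest p, and unclustered regulators if they crossed 1 CPM. Not every named gene is reported here. The members and lists were chosen with earlier results of these data known. Same-numbered libraries varied together in SUDHL6 (correlations of deviations 0.425, 0.488 and 0.632) but not in Farage (0.168, -0.128 and -0.189) or SUDHL4 (-0.054, 0.034 and -0.073).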

Additional observations from a re-analysis of the deposited data

Results flagged for a closer look

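These results are given because the change with treatment differed between 2 lines by a test of the difference itself (limma interaction contrast on log2(CPM + 1), Benjamini-Hochberg adjusted over all genes). Most involve Farage, but so do most of the pairs of lines compared, so this majority does not by itself set Farage apart. Compared with SUDHL6, the change in Farage was more positive for HOXA3 by 1.03 (adjusted p = 0.0007), HOXA4 by 1.62 (3.12e-06), HOXA5 by 1.68 (0.000303), HOXA6 by 0.78 (0.000975), HOXB3 by 0.47 (0.0348) and HOXB9 by 0.69 (2.94e-05). It was more negative for HOXA10 (-1.44, adjusted p = 1.26e-08), HOXC4 (-0.82, 0.00881) and HOXC6 (-0.42, 0.0124).

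Compared with SUDHL4, the change in Farage was more positive for HOXA3 by 0.76 (adjusted p = 0.00592), HOXA4 by 1.01 (0.00026), HOXA5 by 1.29 (0.00234), HOXA6 by 0.71 (0.00201) and HOXB9 by 0.69 (2.54e-05), and more negative for HOXA10 (-1.46, 7.57e-09) and HOXC6 (-0.40, 0.0176). Between SUDHL6 and SUDHL4 the differences were -0.61 for HOXA4 (adjusted p = 0.0132), 0.64 for HOXB4 (0.0149) and 1.04 for HOXC4 (0.00214). That of HOXA4 was not called with edgeR (0.0676), DESeq2 (0.11) or edgeR with no filter (0.133). With edgeR and DESeq2 HOXA3 (0.0076 and 0.00797) and HOXB3 (0.0228 and 0.0223) were called for this pair of lines, and HOXB4 (0.28 and 0.346) was not. For Farage minus SUDHL6, HOXB4 was not called in the main test (-0.47, adjusted p = 0.0606). It was called there with edgeR (0.0149), DESeq2 (0.0187), a pseudocount of 0.25 (0.0182) and median-of-ratios scaling (0.0426).

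HOXA10, HOXB9 and HOXC6 had 0 to 6 reads per group in the other lines, and with edgeR or DESeq2 none of their differences was called. HOXB3 lost its call in 13 alternatives, among them the replicate block (0.052). On the log2(CPM + 1) scale the size of a change also depends on the level in DMSO, and so do differences between lines. Between means HOXB3 fell 4.4-fold in SUDHL6 and 3.66-fold in Farage, against changes of -1.13 and -0.66 on that scale.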

How the results depend on the processing

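Of the changes of single tested HOX genes with treatment, 929 of those refitted without 1 library kept their side of the threshold, 4 came to pass it and 3 no longer did. No called change reversed its direction. For changes called in neither fit, the direction was not compared, and it could differ. In many of these refits the library left out belonged to another line. The estimate then could not move, and only its SE and adjusted p could. With a mean of at least 5 CPM only 2 HOX genes, HOXC4 among them, could be tested, which fixes the counts: lower calls were 0 in SUDHL6 and 2 each in Farage, SUDHL4 and the average of the lines, higher calls 0 in Farage and in the average, DMSO differences 1 for Farage against SUDHL6 and 2 in the other pairs, and response differences 1 for Farage minus SUDHL6, 0 for Farage minus SUDHL4 and 1 for SUDHL6 minus SUDHL4. With no filter (32 HOX genes) lower calls in the average of the lines were 17, DMSO differences 14 for Farage against SUDHL6 and 18 for Farage against SUDHL4, and response differences 6 for SUDHL6 minus SUDHL4. A pseudocount of 0.25 left 1 higher call in Farage. Response differences for Farage minus SUDHL4 were 3 with edgeR, 3 with DESeq2 and 3 with edgeR and no filter, and the cause was not tested. In the average of the lines HOXA10 reversed with DESeq2 (0.05, adjusted p = 0.959) and HOXC6 with edgeR (1.20, 0.0248), DESeq2 (1.34, 0.0406) and edgeR with no filter (1.13, 0.0474), both having 0 to 6 reads per group in SUDHL6 and SUDHL4. Calls in that average were also lost for HOXB9 with edgeR and DESeq2 (0.3), for HOXA10 with edgeR, and for HOXA5 with median-of-ratios scaling (0.21). Leaving out each library in turn gave 8 to 10 lower calls in SUDHL6, 8 to 9 in Farage and 10 in SUDHL4, and 3 to 5 response differences for SUDHL6 minus SUDHL4, with 5 without treated SUDHL6 replicate 1. Silent Farage genes that reached the threshold were 1 to 2, with 1 without treated Farage replicate 3, 1 at 0.5 CPM and 0 at 2 CPM.

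With the replicate block, lower calls were 9 in SUDHL6 (HOXC4 in addition), 9 in Farage and 10 in SUDHL4, and response differences 8, 7 and 3. Besides HOXC4 and the HOXB3 response, the block changed no call named in the text. DMSO differences between lines were not run with the block, since blocks lie within lines. At 6.29 to 25.49 M reads, 1 read was worth 0.0317 to 0.1208 CPM, and a level without reads is limited only to the floor given in the report.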
